A study of Homo sapiens with 32 samples.

Results

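C4-2B is a castration-resistant human prostate cancer line derived from the androgen-sensitive line LNCaP. The comparison described here was the interaction of MOCOS knockdown with thapsigargin (TG) in C4-2B, that is, the knockdown effect in cells given TG minus the knockdown effect in cells without it, on the log2 scale. It used every C4-2B library, 16 of the 32 RNA-seq libraries of the series, in 4 groups of 4. The groups were cells with a control siRNA (siCTRL) and no TG, cells with siRNA against MOCOS (siMOCOS) and no TG, siCTRL cells with TG, and siMOCOS cells with TG. All cells carried an siRNA, and those without TG had vehicle. According to the labels, 2 different siRNAs targeted MOCOS, each in 2 libraries per drug group, but the table numbers its knockdown columns without naming the siRNA, so the 4 knockdown libraries of a drug group were pooled. How much TG was used, and for how long, is not stated in the labels given.

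MOCOS sulfurates the molybdenum cofactor of xanthine dehydrogenase and aldehyde oxidase. TG blocks the SERCA pump that fills the endoplasmic reticulum (ER) with calcium, and the ER stress that follows is read by the sensors IRE1, ATF6 and PERK. IRE1 splices the mRNA of XBP1, ATF6 is cleaved to a transcription factor for ER chaperones, and PERK leads through ATF4 to CHOP and to genes of amino acid supply. The same ER membrane holds the sterol sensor SCAP, which carries SREBP to the Golgi for activation, and INSIG1, which retains SCAP in the ER when sterol is high. A positive interaction means that knockdown gave a higher level, relative to siCTRL, with TG than without it.

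The upstream sequences of 3 genes are shown because the results below turn on the classes of gene they stand for: INSIG1 for sterol synthesis, HSPA5 for ATF6 targets and CHAC1 for PERK-ATF4-CHOP targets. Each is the 250 bases before the annotated start, 5′ to 3′ on the gene's strand, from RefSeq on GRCh38.p14. Capitals mark the searched motif: the CCAAT box (CCAAT, read as ATTGG on the other strand) in INSIG1, the ER stress response element (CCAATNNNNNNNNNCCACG, which contains a CCAAT box) in HSPA5, and the C/EBP-ATF response element (TGATGNAA, read on the other strand) in CHAC1.
INSIG1, chr7:155297628-155297877, plus strand: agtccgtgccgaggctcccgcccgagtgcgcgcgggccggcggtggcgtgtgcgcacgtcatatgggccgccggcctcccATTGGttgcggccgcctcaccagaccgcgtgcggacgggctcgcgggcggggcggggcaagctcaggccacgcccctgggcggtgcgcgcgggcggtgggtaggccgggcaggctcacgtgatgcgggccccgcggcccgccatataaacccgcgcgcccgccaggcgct
HSPA5, chr9:125241344-125241593, minus strand: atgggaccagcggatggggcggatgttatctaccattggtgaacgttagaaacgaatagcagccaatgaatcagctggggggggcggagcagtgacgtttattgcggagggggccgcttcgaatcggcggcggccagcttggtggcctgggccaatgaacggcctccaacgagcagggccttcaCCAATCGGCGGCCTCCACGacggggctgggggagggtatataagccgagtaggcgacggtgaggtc
CHAC1, chr15:40953221-40953470, plus strand: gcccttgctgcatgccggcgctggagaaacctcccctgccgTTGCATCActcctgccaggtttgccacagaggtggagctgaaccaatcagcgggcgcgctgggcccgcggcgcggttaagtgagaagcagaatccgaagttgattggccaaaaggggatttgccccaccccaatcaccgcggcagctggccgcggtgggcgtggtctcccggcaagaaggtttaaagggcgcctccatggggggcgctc
Both strands of the same window were searched in 27305 RefSeq promoters, 1 per gene symbol. The ER stress response element was in 22 of them (0.0806%), and in 6 of the 15 promoters of the ATF6 target list, those of CALR, CANX, CRELD2, HSP90B1, HSPA5 and XBP1. TGATGNAA was in 3.19% of all promoters and in 5 of the 36 PERK-ATF4-CHOP target promoters in the table, including CHAC1, ASNS and ATF3. The CCAAT box was in 33% of all promoters and in 14 of the 17 cholesterol synthesis promoters in the table. It was also in 14 of the 15 ATF6, 17 of the 31 XBP1s and 18 of the 36 PERK-ATF4-CHOP target promoters, so it was not particular to sterol genes. A sterol regulatory element written as TCACNCCAC was in 0.875% of all promoters, and among the 17 cholesterol synthesis promoters only in that of SREBF2. These matches describe the letters of the windows only.

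The C4-2B libraries held 12426702 to 24362179 counts each, and 14127 genes of the 29744 in the table passed the filter on low counts. All 9 luminal prostate markers, among them HOXB13, EPCAM and KRT8, reached 1 CPM (counts scaled to library size) in at least 1 library. The 5 immune markers summed to at most 0.259 CPM in any library, and of the 4 basal markers only TP63 reached 1 CPM. Within the groups most libraries deviated with gene properties. Spearman's rho across genes between a library's deviation from its group mean and transcript length was 0.444 in siCTRL replicate 2 and 0.474 in siCTRL TG replicate 3, and that with GC content was -0.624 in siCTRL replicate 1. Deviations as strong were seen elsewhere, such as in siCTRL replicate 4 (length -0.444, GC 0.531), siCTRL TG replicate 2 (length -0.456) and siMOCOS TG replicate 3 (GC -0.526). The libraries siCTRL replicate 2 and siCTRL TG replicate 3 deviated together, and calls lost without both are given below.

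MOCOS itself was reduced in every knockdown library, with and without TG. Its levels in libraries 1 to 4 were 34.1, 35.8, 31.1 and 31.1 CPM in siCTRL and 2.37, 2.97, 4.12 and 4.84 CPM in siMOCOS. With TG they were 94.0, 96.4, 89.5 and 94.4 CPM in siCTRL and 12.3, 11.3, 19.5 and 19.8 CPM in siMOCOS. In bulk RNA, fewer cells with a transcript and less transcript per cell cannot be told apart, here and below. No knockdown library reached the range of the siCTRL libraries of its drug group. The remaining MOCOS mRNA was higher with TG than without it in all knockdown libraries. The interaction of MOCOS was not called (log2 0.63, SE 0.287, adjusted p = 0.663, edgeR).

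Most genes called for knockdown had the same direction with and without TG. Over 14127 genes the knockdown effect without TG and that with TG, which come from separate libraries, correlated with a Pearson r of 0.673 and a Spearman rho of 0.704 across genes, and with 0.812 and 0.774 over the 10532 genes averaging 5 CPM or more. Genes are not independent replicates, and these values are a description. Knockdown changed 2434 genes without TG (17.2% of those tested) and 2375 with TG (16.8%) at an adjusted p under 0.05 in edgeR's quasi-likelihood test. Without TG 9.09% of genes were called higher and 8.14% lower, and with TG 9.21% higher and 7.6% lower. Of the called genes, 1377 were called in the same direction in both, 708 lower and 669 higher, which is 56.6% of the former and 58.0% of the latter, and 4 were called in opposite directions. Among the 2434, 94.7% had the same sign with TG. The median interaction of all genes was 0.03, with percentile 1 at -1.5 and percentile 99 at 1.06. Of the 2434 genes called without TG, 1630 had the same sign and a smaller fitted effect with TG and 675 the same sign and a larger one. These genes were selected by their effect without TG, and that choice alone favours smaller effects in the other setting. The 2 counts therefore do not show that TG weakened the knockdown effect.

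**Figure D1:**
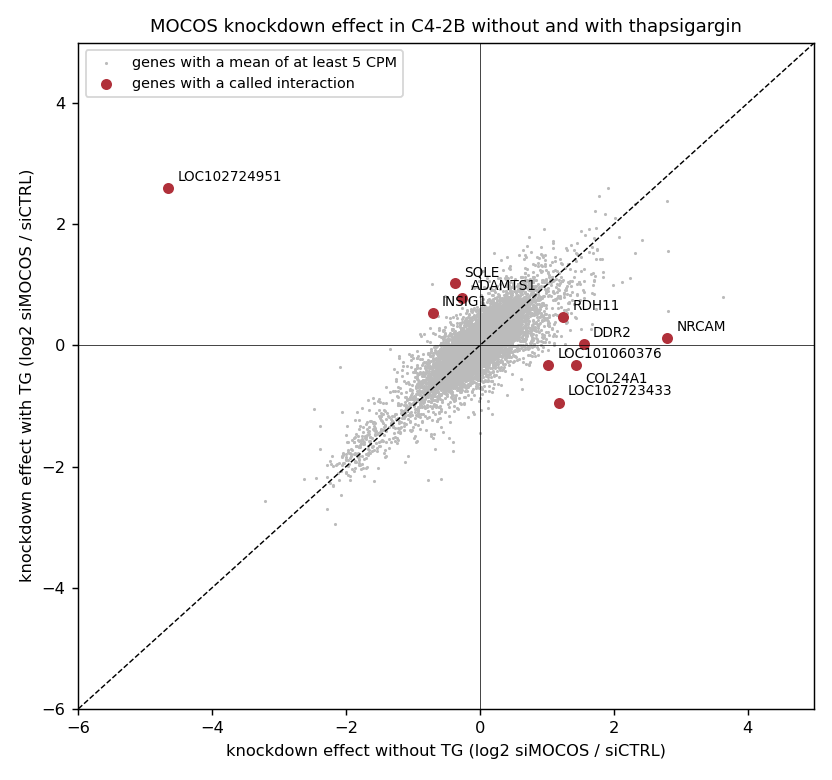
Knockdown effect in C4-2B without TG (x axis) and with TG (y axis), both log2 of siMOCOS over siCTRL. Grey points are genes averaging 5 CPM or more, red points the 10 genes with a called interaction, some of which are below 5 CPM, and the dashed line marks equal effects; NRCAM lies at 2.80 without TG and 0.12 with TG.

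The interaction was called for 10 genes, 0.0708% of those tested, at an adjusted p under 0.05 (edgeR). It was positive for 4 (0.0283%) and negative for 6 (0.0425%). At an unadjusted p under 0.05 were 982 genes (6.95%), and the interaction was positive for 458 genes (3.24%) and negative for 524 (3.71%). In 7 of the 10 genes the fitted knockdown effects without and with TG had opposite signs, and in the other 3 the effect was smaller with TG. These signs come from the contrast that called the genes and carry no test of their own.

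SQLE, squalene epoxidase, an oxygen-dependent step of cholesterol synthesis known for limiting its rate, had the greatest positive interaction among the called protein-coding genes. Its levels in libraries 1 to 4 were 114, 114, 93.0 and 89.4 CPM in siCTRL and 90.2, 85.7, 67.2 and 73.0 CPM in siMOCOS. With TG they were 50.3, 54.4, 68.4 and 58.4 CPM in siCTRL and 143, 128, 104 and 96.8 CPM in siMOCOS. Without TG the knockdown libraries were the lower ones on average but overlapped siCTRL, whereas with TG every knockdown library was above every siCTRL library. Knockdown raised SQLE with TG (log2 1.03, SE 0.152, adjusted p = 0.000113, edgeR) but was not called without TG (log2 -0.38, SE 0.150, adjusted p = 0.0958). The interaction was log2 1.40, SE 0.213, adjusted p = 0.0195 by edgeR, a 2.65-fold difference between the knockdown ratios. Read as a TG response, SQLE fell in siCTRL cells (log2 -0.83, adjusted p = 0.000360) and rose in siMOCOS cells (log2 0.58, adjusted p = 0.00578). The call was lost when siCTRL TG replicate 1 (adjusted p = 0.0659), 2 (0.0524) or 4 (0.0750), siMOCOS TG replicate 2 (0.0653) or siMOCOS replicate 4 (0.0754) was left out. The log2 value stayed between 1.26 and 1.5 over the 16 fits that each left out 1 library.

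INSIG1, the ER membrane protein that retains SCAP and is itself an SREBP target, lies on chromosome 7, 155297878 to 155310235, plus strand. Its levels were 465, 329.8, 394 and 376 CPM in siCTRL and 218, 241, 253 and 251 CPM in siMOCOS. With TG they were 217, 214, 169 and 223 CPM in siCTRL and 344, 309.5, 270.3 and 265 CPM in siMOCOS. Knockdown libraries were all below siCTRL without TG and all above it with TG, with no overlap in either. The knockdown effect was called in both settings, as a fall without TG (log2 -0.70, SE 0.129, adjusted p = 0.000954, edgeR) and a rise with TG (log2 0.53, SE 0.129, adjusted p = 0.00810). The interaction was log2 1.23, SE 0.182, adjusted p = 0.0195, a 2.35-fold difference between the ratios. TG lowered INSIG1 in siCTRL cells (log2 -0.93, adjusted p = 2.64e-05), and in siMOCOS cells its change was not called (log2 0.30, adjusted p = 0.0700). The adjusted p exceeded 0.05 without siCTRL TG replicate 2 (0.0524), siMOCOS TG replicate 2 (0.0653), or siMOCOS replicate 1 (0.0537) or 4 (0.0560), with log2 values of 1.12 to 1.31 over all 16 such fits.

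**Figure D2:**
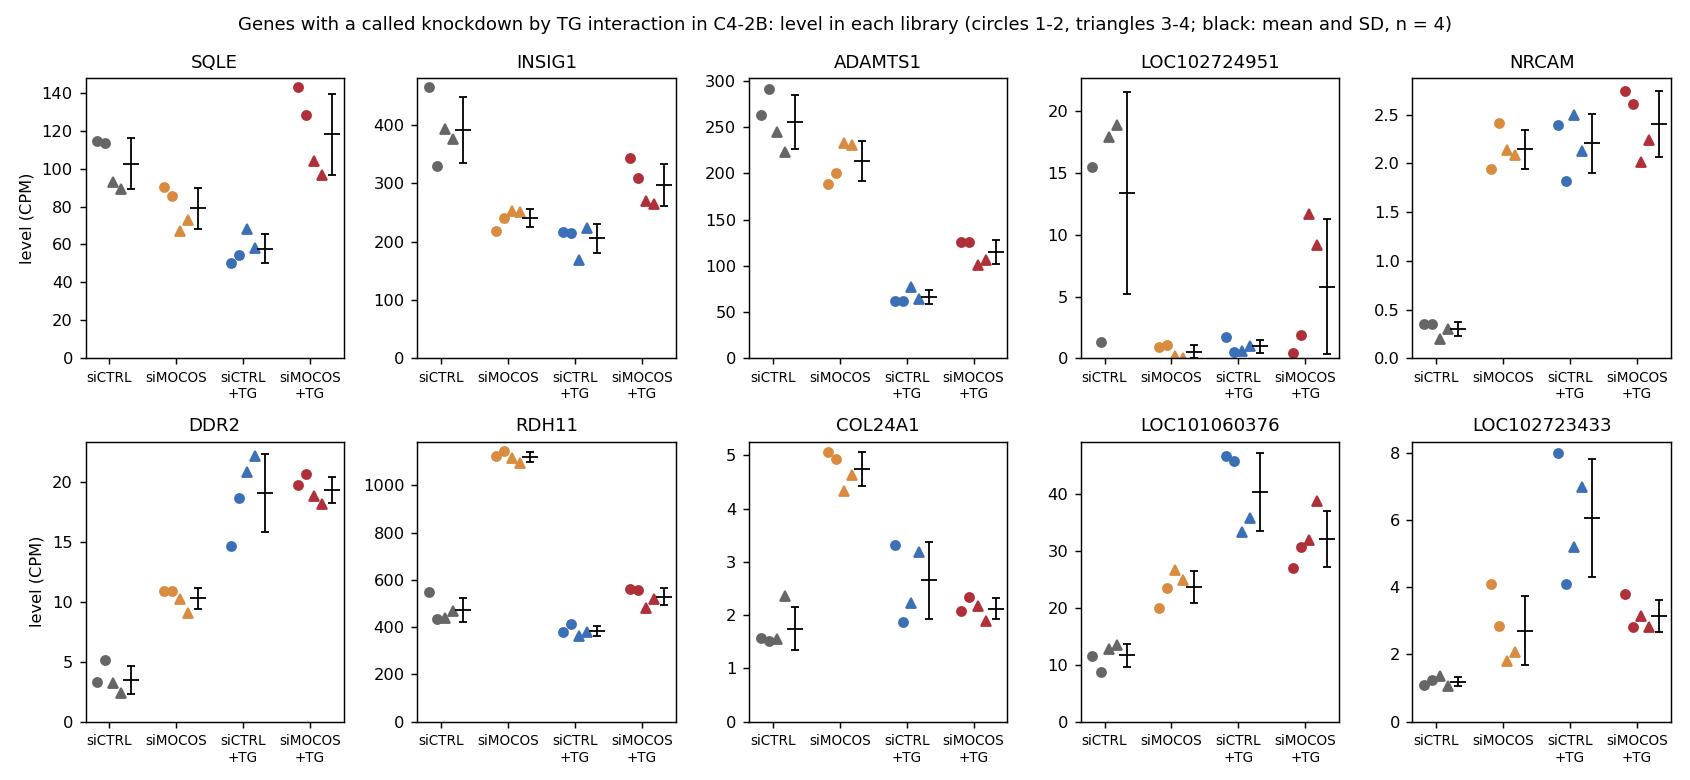
Level in CPM (y axis, from 0) of each of the 10 called genes in each C4-2B library, by group (x axis). Circles are libraries 1 and 2, triangles libraries 3 and 4, and the black bars are the mean and SD of 4 libraries; SQLE and INSIG1 in siMOCOS cells with TG lie above all siCTRL libraries with TG.

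ADAMTS1, a secreted metalloprotease that cleaves proteoglycans, lies on chromosome 21, 26835755 to 26845409, minus strand. Its levels were 264, 291, 245 and 223 CPM in siCTRL and 189, 200.5, 233 and 231 CPM in siMOCOS without TG, and the 2 groups overlapped. With TG they were 62.4, 62.0, 77.2 and 63.9 CPM in siCTRL and 126, 126, 101 and 106 CPM in siMOCOS, with every knockdown library higher. The interaction was log2 1.05, SE 0.175, adjusted p = 0.0459 (edgeR). TG lowered ADAMTS1 with either siRNA, by 1.95 on the log2 scale in siCTRL and by 0.89 in siMOCOS cells. The non-coding RNA LOC102724951 (LINC03105 in RefSeq, on chromosome 21) had the greatest fitted value among the called genes, log2 7.26 (SE 1.32, adjusted p = 0.0495). Its libraries varied widely within groups. The siCTRL libraries were at 15.5, 1.33, 17.9 and 18.9 CPM, the siMOCOS libraries at 0.916, 1.04, 0.165 and 0 CPM, the siCTRL TG libraries at 1.73, 0.546, 0.623 and 1.02 CPM and the siMOCOS TG libraries at 0.448, 1.88, 11.7 and 9.19 CPM. Replicate 2 was low among siCTRL libraries, and only replicates 3 and 4 were high among siMOCOS libraries with TG. With limma voom its adjusted p was 0.238. ADAMTS1 was called in 5 of the 16 fits that left out 1 library, those without siCTRL replicate 4, siCTRL TG replicate 3, siMOCOS replicate 3 or siMOCOS TG replicate 3 or 4 (adjusted p = 0.0207 to 0.122 over all 16), and LOC102724951 in 2 of them, those without siCTRL replicate 2 or siMOCOS TG replicate 1 (0.0266 to 0.131 over all 16).

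NRCAM, a neuronal cell adhesion molecule of the immunoglobulin superfamily (chromosome 7, 108147649 to 108456720, minus strand), had the smallest adjusted p of all genes. At no more than 2.74 CPM in any library it was below the level set for named genes, and it was chosen after its values were seen, as were COL24A1 and LOC102723433. NRCAM was at 0.349, 0.355, 0.203 and 0.304 CPM in siCTRL and 1.94, 2.42, 2.14 and 2.09 CPM in siMOCOS. The TG libraries held it at 2.39, 1.82, 2.49 and 2.13 CPM in siCTRL and 2.74, 2.61, 2.02 and 2.24 CPM in siMOCOS. The siMOCOS libraries without TG and both groups with TG shared 1 overlapping range, above all siCTRL libraries without TG. Knockdown raised it without TG (log2 2.80, SE 0.265, adjusted p = 9.05e-07, edgeR), and its effect with TG was not called (log2 0.12, adjusted p = 0.728). The interaction was log2 -2.68, SE 0.339, adjusted p = 0.00444, and it was called in all 16 fits that left out 1 library (adjusted p = 0.00681 to 0.0275). Its size rests on siCTRL libraries without TG at 0.355 CPM or less, where few counts make folds imprecise.

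DDR2, a receptor tyrosine kinase that binds fibrillar collagen (chromosome 1, 162630863 to 162787405, plus strand), was likewise lowest in siCTRL. It was at 3.32, 5.14, 3.25 and 2.35 CPM in siCTRL, 10.9, 10.9, 10.2 and 9.06 CPM in siMOCOS, 14.6, 18.7, 20.8 and 22.1 CPM in siCTRL with TG and 19.7, 20.6, 18.8 and 18.2 CPM in siMOCOS with TG. Knockdown raised it without TG (log2 1.56), and the groups with TG overlapped (log2 0.02), for an interaction of log2 -1.54, SE 0.265, adjusted p = 0.0471 (edgeR). The mesenchymal and stromal markers summed to 22.5 to 27 CPM in siCTRL, 16.7 to 29.1 CPM in siMOCOS, 19.3 to 34.7 CPM in siCTRL with TG and 31.0 to 41.4 CPM in siMOCOS with TG, carried by VIM and COL1A1, with COL1A2 at 0 in all libraries and DCN at or near 0, and their part in the result was not tested. COL24A1, a fibrillar collagen gene (chromosome 1, 85729233 to 86156984, minus strand), was highest with knockdown alone. It was at 1.57, 1.51, 1.56 and 2.35 CPM in siCTRL, 5.06, 4.94, 4.34 and 4.63 CPM in siMOCOS, 3.32, 1.86, 2.23 and 3.19 CPM in siCTRL with TG and 2.07, 2.35, 2.18 and 1.90 CPM in siMOCOS with TG (log2 -1.76, SE 0.317, adjusted p = 0.0495). RDH11, an androgen-regulated retinal reductase of the ER (chromosome 14, 67676800 to 67695764, minus strand), was the most abundant of the 6. Its levels were 548, 435, 441 and 468 CPM in siCTRL and 1124, 1145, 1114 and 1096 CPM in siMOCOS, against 380.1, 411, 364 and 378 CPM and 559.6, 556, 482 and 519 CPM with TG. Knockdown raised it in both settings with no overlap, by log2 1.24 without TG and 0.46 with TG, and the interaction was log2 -0.78, SE 0.139, adjusted p = 0.0495.

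The other 2 genes with a negative interaction have uncertain identity in these data. LOC101060376 is TBC1D3L in RefSeq, a member of the multicopy TBC1D3 family on chromosome 17, among whose near-identical copies the authors' counting could split reads. Its levels were 11.6, 8.78, 12.7 and 13.5 CPM in siCTRL, 19.9, 23.4, 26.6 and 24.8 CPM in siMOCOS, 46.7, 45.8, 33.3 and 35.7 CPM in siCTRL with TG and 27.1, 30.7, 32 and 38.8 CPM in siMOCOS with TG (log2 -1.35, SE 0.233, adjusted p = 0.0471, edgeR). LOC102723433 had no match among the RefSeq symbols used. It was at 1.06 to 1.35 CPM in siCTRL, 1.81 to 4.09 CPM in siMOCOS, 4.09 to 7.98 CPM in siCTRL with TG and 2.80 to 3.81 CPM in siMOCOS with TG (log2 -2.13, SE 0.387, adjusted p = 0.0495). Its knockdown groups did not overlap siCTRL in either setting, higher without TG and lower with it. The calls of the 5 genes besides NRCAM were lost in most fits that left out 1 library, while the fitted values kept their sign. Over these fits log2 was -1.76 to -1.43 for DDR2, -1.47 to -1.24 for LOC101060376 and -0.86 to -0.74 for RDH11. It was -1.97 to -1.63 for COL24A1 and -2.27 to -1.86 for LOC102723433. Among the 16 fits that left out 1 library, DDR2 was called in 3 (without siCTRL replicate 2 or 4 or siCTRL TG replicate 1), LOC101060376 in 3 (without siCTRL replicate 4, siCTRL TG replicate 3 or siMOCOS TG replicate 4), RDH11 in 2 (without siCTRL replicate 1 or 4), COL24A1 in 1 (without siCTRL replicate 4) and LOC102723433 in 1 (without siMOCOS replicate 3). The highest adjusted p over these fits was 0.140. Without both siCTRL replicate 2 and siCTRL TG replicate 3, LOC101060376, RDH11, COL24A1 and LOC102723433 were not called, nor was LOC102724951 (adjusted p = 0.0534 to 0.106).

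Genes of cholesterol synthesis and uptake had mostly higher knockdown ratios with TG than without it. Of the 22 measured members of the list, 21 had an interaction above 0, against 53.8% of all genes, and the list's median was 0.36, against 0.03. SQLE and INSIG1 were called (0.0283% of all genes were called positive), and 6 members had a positive interaction at an unadjusted p under 0.05 (3.24% of all genes). CYP51A1, MSMO1 and STARD4 were among the 4 not called. The median knockdown effect of the list was -0.27 without TG, with 2 members called higher and 4 lower, and 0.26 with TG, with 8 called higher and 1 lower. The shares of all genes called higher and lower were 9.09% and 8.14% without TG, and 9.21% and 7.6% with TG.

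Among these, CYP51A1, the lanosterol demethylase, was at 464, 346, 352 and 344 CPM in siCTRL and 324, 331, 295 and 321 CPM in siMOCOS. With TG it was at 385, 359, 330.1 and 389 CPM in siCTRL and 527, 439, 537 and 419 CPM in siMOCOS, with no overlap in either setting and opposite orders. Its interaction was not called (log2 0.64, SE 0.171, adjusted p = 0.215, edgeR). MSMO1, a sterol methyl oxidase of a later step, was at 76.8, 56.5, 74.4 and 69.2 CPM in siCTRL and 82.8, 99.3, 63.6 and 55.6 CPM in siMOCOS, which overlapped. Its levels with TG were 67.4, 73.3, 72.8 and 73.3 CPM in siCTRL and 165, 142, 117 and 102 CPM in siMOCOS, and knockdown raised it there (log2 0.87, adjusted p = 0.00210), while its interaction was log2 0.75, SE 0.249, adjusted p = 0.371. HMGCS1, the HMG-CoA synthase, was higher on average with knockdown in both settings (log2 0.73 and 1.05), with an interaction of log2 0.32, adjusted p = 1. Without TG it was at 266, 194, 224 and 205 CPM in siCTRL and 488, 456, 268 and 263 CPM in siMOCOS. The groups without TG overlapped, and knockdown libraries 3 and 4 lay near the top of the siCTRL range. With TG every knockdown library was higher. The list's median was 0.29 to 0.43 over the fits that left out 1 library, and 21 of 22 members stayed above 0 without siCTRL replicate 2 and siCTRL TG replicate 3.

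**Figure D3:**
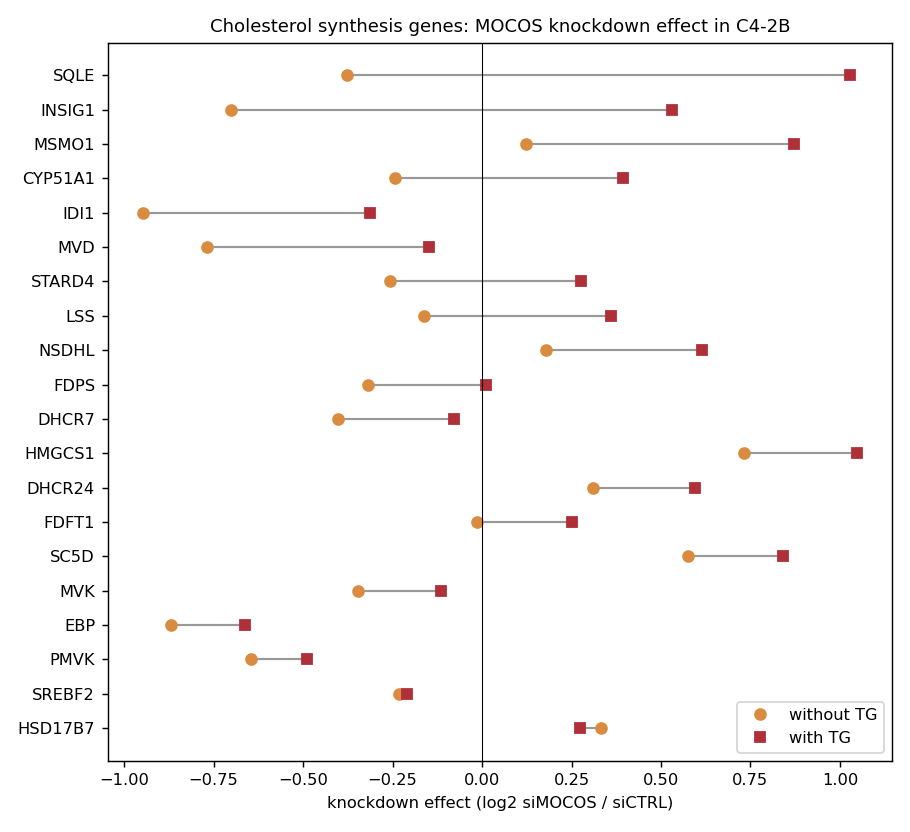
Knockdown effect (x axis, log2 of siMOCOS over siCTRL) of 20 of the 22 measured cholesterol synthesis genes in C4-2B, without TG (orange circles) and with TG (red squares), ordered by the interaction. In 19 of the 20 genes drawn the square lies to the right of the circle, and in HSD17B7 to its left.

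Genes of fatty acid synthesis had a median interaction of 0.28, with 13 of 15 above 0 (53.8% of all genes were) and none called. At an unadjusted p under 0.05, 4 were positive and 1 was negative, against 3.24% and 3.71% of all genes. ELOVL6, a fatty acid elongase, was at 82.2, 89.9, 72.6 and 68.4 CPM in siCTRL and 39.7, 41.2, 31.4 and 34.4 CPM in siMOCOS, a fall without overlap (log2 -1.09). The TG libraries held it at 30.9, 30.6, 34.4 and 28.0 CPM and 25.9, 18.8, 28.7 and 24.6 CPM, and the groups overlapped (log2 -0.34). Its interaction was log2 0.75, SE 0.202, adjusted p = 0.215 by edgeR. FADS1, the delta-5 desaturase, fell with knockdown in both settings, by 1.25 on the log2 scale without TG and by 0.59 with TG (log2 0.66, adjusted p = 0.251 for the interaction).

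Targets of the unfolded protein response also had higher knockdown ratios with TG than without it, though no member was called. Of 37 XBP1s targets, which serve ER protein import, glycosylation and ER-associated degradation, 35 had an interaction above 0, with a median of 0.34. An unadjusted p under 0.05 was reached by 14 in the positive direction and 0 in the negative. All 15 ATF6 targets, chiefly ER chaperones, were above 0 (median 0.42), with 5 at an unadjusted p under 0.05. Among 42 PERK-ATF4-CHOP targets 36 were above 0 (median 0.33), with 12 positive and 1 negative at an unadjusted p under 0.05. Of all genes, 53.8% were above 0, and 3.24% were positive at an unadjusted p under 0.05. The ATF6 and XBP1s lists share DNAJB11, HYOU1, PDIA4 and SEL1L. Over the fits that left out 1 library the median was 0.26 to 0.43 for XBP1s and 0.31 to 0.59 for ATF6 targets. For PERK-ATF4-CHOP targets single libraries moved it by over 1.5 times, to 0.21 without siMOCOS replicate 2, 0.22 without siMOCOS replicate 1 and 0.51 without siMOCOS replicate 4.

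The knockdown effects behind these values were as follows. Without TG, 18 PERK-ATF4-CHOP targets were called lower after knockdown and 0 higher, and with TG 2 were called lower and 1 higher, of 42. Among all genes 8.14% were called lower and 9.09% higher without TG, and 7.6% and 9.21% with TG, so the counts of PERK-ATF4-CHOP targets with TG were no larger than these shares. For XBP1s targets 1 was called in each direction without TG, and 7 were called higher and 0 lower with TG. For ATF6 targets 0 were called higher and 1 lower without TG, and 3 higher and 0 lower with TG. The median knockdown effect was -0.05 without TG and 0.33 with TG for XBP1s targets, and -0.08 and 0.28 for ATF6 targets. For PERK-ATF4-CHOP targets it was -0.48 without TG and -0.18 with TG, below 0 in both settings. Read as a TG response, which called 21.2% of all genes higher in siCTRL and 20.7% in siMOCOS cells, the median of XBP1s targets was 0.40 in siCTRL cells (22 of 37 called higher) and 0.86 in siMOCOS cells (27 called higher). For ATF6 targets it was 0.66 (9 of 15) and 1.02 (13 of 15), and for PERK-ATF4-CHOP targets 1.2 (32 of 42) and 1.51 (35 of 42). The sensors and transducers as a list had a median of -0.01, with 5 of 10 above 0. Of these only EIF2AK3, which encodes PERK, had an unadjusted p under 0.05 (log2 0.57, SE 0.191, adjusted p = 0.376, edgeR).

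HSPA5, the ER chaperone BiP, was at 3016, 2477, 2568 and 2439 CPM in siCTRL and 1732, 1792, 1707 and 1982 CPM in siMOCOS, lower in all knockdown libraries. With TG it was at 5819, 5674, 4296 and 5959.6 CPM in siCTRL and 8758, 7034, 5696 and 4472 CPM in siMOCOS. The groups with TG overlapped, with siMOCOS libraries 1 and 2 above all siCTRL libraries and libraries 3 and 4 within their range. Its interaction was log2 0.80, SE 0.231, adjusted p = 0.265 (edgeR). KDELR3, which retrieves escaped ER proteins, was at 10.6, 9.48, 9.21 and 11.7 CPM in siCTRL and 12, 10.5, 14.6 and 13.5 CPM in siMOCOS, which overlapped. Its levels with TG were 20.8, 18.9, 12.2 and 18.8 CPM in siCTRL and 43.1, 32.4, 42.9 and 34.2 CPM in siMOCOS, with all knockdown libraries higher and an interaction of log2 0.81, SE 0.243, adjusted p = 0.285.

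CHAC1, a glutathione-degrading enzyme and ATF4 target, was at 3.78, 4.70, 7.38 and 6.46 CPM in siCTRL and 0.862, 1.04, 0.988 and 2.29 CPM in siMOCOS, all knockdown libraries being lower. The TG libraries held it at 37.9, 46.0, 28.7 and 41.8 CPM in siCTRL and 35.3, 42.2, 19.0 and 24.7 CPM in siMOCOS, and the groups overlapped. Its interaction of log2 1.74 (SE 0.433) had an adjusted p of 0.179 by edgeR. The amino acid transporters SLC1A4 and SLC7A5 and the mitochondrial folate enzyme MTHFD2 were also lower in all knockdown libraries without TG and overlapped siCTRL with TG. SLC1A4 was at 16.8, 20.6, 16.6 and 17.9 CPM in siCTRL, 7.06, 5.71, 9.55 and 9.83 CPM in siMOCOS, 52.0, 60.3, 68.7 and 51.3 CPM in siCTRL with TG and 52.5, 45.2, 49.1 and 45.8 CPM in siMOCOS with TG. Knockdown lowered all 3 without TG (log2 -1.16, -1.15 and -0.67, in that order), and its effect with TG was not called for any (log2 -0.27, -0.35 and -0.005). In mean CPM, siMOCOS minus siCTRL was -9.91 without TG and -9.96 with TG for SLC1A4, and -87.0 and -41.9 for SLC7A5. It was -38.8 and -0.675 for MTHFD2, and -4.28 and -8.29 for CHAC1. The interaction compares ratios and does not measure these differences. ATF4 and DDIT3, which encodes CHOP, were not called for knockdown in either setting or for the interaction (log2 0.19 and 0.35, adjusted p = 1 for both).

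**Figure D4:**
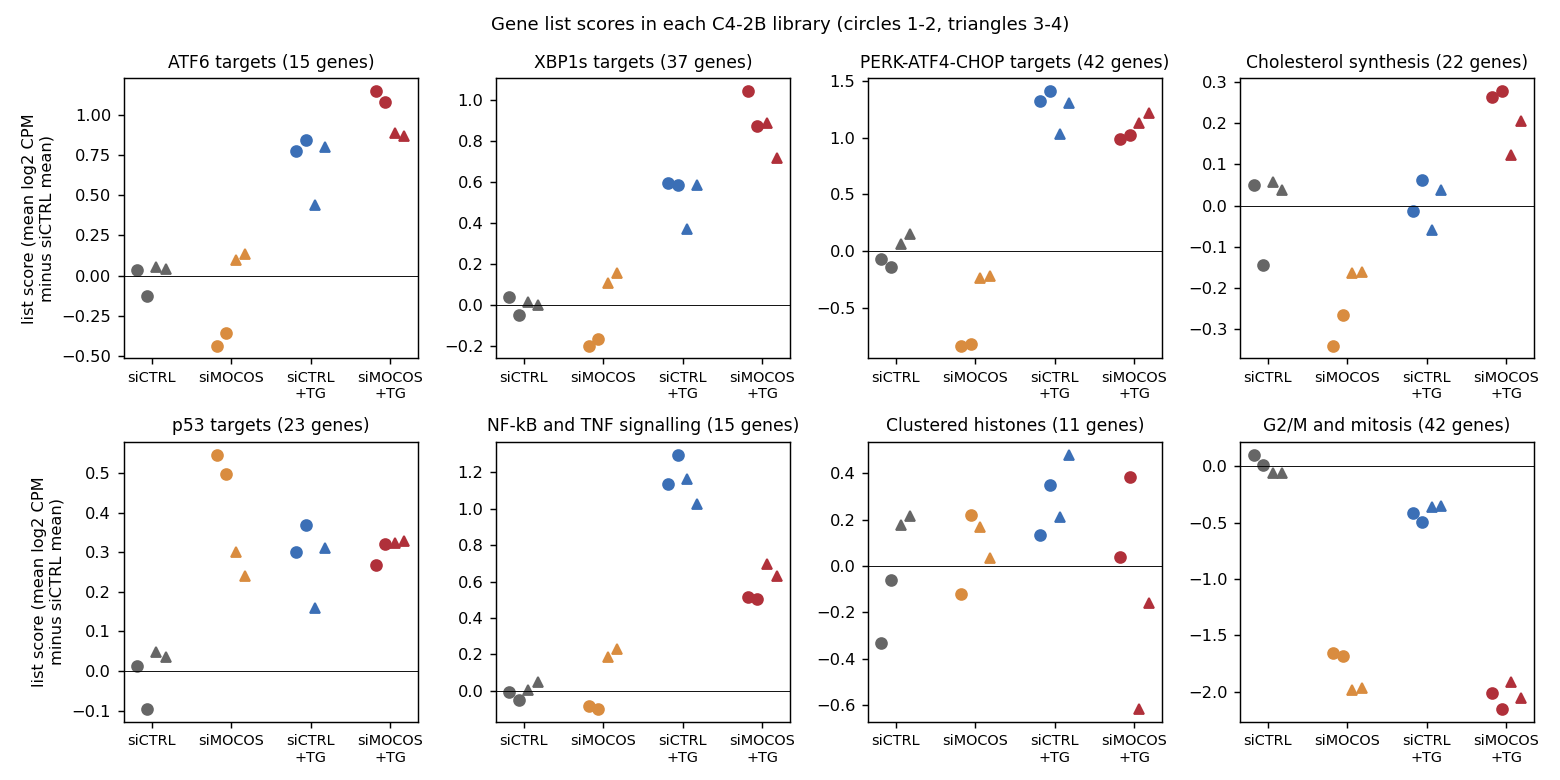
List score (y axis, mean log2 CPM of the list's measured genes minus the siCTRL mean) of 8 gene lists in each C4-2B library, by group (x axis); circles are libraries 1 and 2, triangles libraries 3 and 4. XBP1s targets lie at 0.37 to 0.59 in siCTRL with TG and 0.72 to 1.04 in siMOCOS with TG, and within siMOCOS cells without TG libraries 1 and 2 lie below libraries 3 and 4 in the ATF6, XBP1s, PERK-ATF4-CHOP and cholesterol lists.

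These lists had different medians in the 2 pairs of knockdown columns, which share the siCTRL libraries. The labels give 2 libraries of each siRNA per group, and a fit that held knockdown columns 1 and 2 apart from columns 3 and 4 gave the ATF6 targets a median interaction of 0.85 for columns 1 and 2 and 0.07 for columns 3 and 4. For XBP1s targets the medians were 0.58 and 0.19, for PERK-ATF4-CHOP targets 0.56 and 0.22, and for cholesterol synthesis 0.56 and 0.32. The list scores without TG showed the same split. ATF6 targets were at -0.44 and -0.36 in siMOCOS libraries 1 and 2 and at 0.10 and 0.14 in libraries 3 and 4. The numbers do not say which siRNA a column holds, so siRNA and column number cannot be told apart. The column pairs also differed in their deviation with transcript length, given with the ribosomal protein genes below, and its part was not tested. SQLE and INSIG1 were called for columns 1 and 2 (log2 1.45 and 1.44) and for columns 3 and 4 (log2 1.34 and 1.02, adjusted p = 0.0179 and 0.0489) in this fit. With columns 3 and 4 fitted alone neither was called (SQLE log2 1.30, adjusted p = 0.0755, INSIG1 log2 0.97, adjusted p = 0.138, edgeR).

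In that fit the interaction averaged over both column pairs was called for 93 genes in the positive (0.658%) and 102 in the negative direction (0.722%), including the 10 named above, since the spread between the column pairs no longer counted as replicate error. It was called for 330 genes (2.34%) in columns 1 and 2 and 28 (0.198%) in columns 3 and 4, and it differed between the pairs in 48 (0.34%). Averaged over the pairs, 3 members each of the cholesterol, ATF6, XBP1s and PERK-ATF4-CHOP lists were called positive and 0 negative, and 2 p53 targets were called negative.

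Targets of p53 had mostly lower knockdown ratios with TG. Of 23 measured, 20 had an interaction below 0 (46.2% of all genes did), with a median of -0.28, 7 negative and 0 positive at an unadjusted p under 0.05 (3.71% of all genes were negative at that level), and none called. Without TG knockdown raised 8 of them and lowered 0 (9.09% and 8.14% of all genes). With TG 2 were called in each direction (9.21% of all genes higher and 7.6% lower). The list's median interaction was -0.44 for knockdown columns 1 and 2, with 4 of 23 above 0. For columns 3 and 4 it was -0.18, with 8 of 23 above 0. CDKN1A, the cell cycle inhibitor p21, was at 33.4, 48.2, 45.2 and 44.7 CPM in siCTRL and 159, 150.0, 54.3 and 54.5 CPM in siMOCOS. With TG it was at 176, 186, 131 and 155 CPM in siCTRL and 199, 232, 90.1 and 94.8 CPM in siMOCOS. Knockdown libraries 1 and 2 were above 3 and 4 in both settings, and with TG libraries 3 and 4 lay below all siCTRL libraries. Its interaction was log2 -1.36, SE 0.495, adjusted p = 0.466 by edgeR. BTG2, an antiproliferative gene, was at 47.8, 43.3, 41.4 and 43.0 CPM in siCTRL and 108, 113, 67.9 and 69.3 CPM in siMOCOS, and at 56.5, 66.2, 61.8 and 57.6 and 70.7, 71.3, 69.0 and 70.6 CPM with TG. Knockdown libraries were all higher in both settings, more so without TG (log2 -0.81, SE 0.212, adjusted p = 0.207 for the interaction). SESN1, a stress-induced regulator of mTORC1, rose with knockdown without TG (log2 0.96) and was not called with TG (log2 0.15).

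Genes of NF-kB and TNF signalling had a median interaction of -0.44, with 11 of 15 below 0, 5 negative at an unadjusted p under 0.05 and none called. The shares of all genes were 46.2% below 0 and 3.71% negative at that level. With TG knockdown lowered 6 of them (7.6% of all genes), and without TG 1 was called in each direction (9.09% of all genes higher and 8.14% lower). NFKB2, which encodes the p100 subunit, was at 14.5, 14.6, 18.1 and 16.8 CPM in siCTRL and 12.7, 13.5, 16.4 and 17.2 CPM in siMOCOS, which overlapped. Its levels with TG were 53.3, 61.7, 51.1 and 53.2 CPM in siCTRL and 22.1, 25.6, 22.6 and 32.6 CPM in siMOCOS, with every knockdown library lower. Knockdown lowered it with TG (log2 -1.09, SE 0.149, adjusted p = 4.78e-05, edgeR), and the interaction was log2 -0.99, SE 0.212, adjusted p = 0.102. BIRC3, an inhibitor of apoptosis protein induced by NF-kB, was at 5.24 to 8.08 CPM in siCTRL and 8.24 to 8.78 CPM in siMOCOS, and at 34.0, 35.8, 49.1 and 39.1 CPM in siCTRL with TG and 15.6, 15.4, 30.7 and 27.9 CPM in siMOCOS with TG (log2 -1.22, SE 0.308, adjusted p = 0.185 for the interaction). Its TG response was called in both siCTRL (log2 2.62) and siMOCOS cells (log2 1.41).

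The list drawn as clustered histones, which also holds H1FX and H2AFZ from outside the histone clusters, had a median interaction of -0.55. In it 9 of 11 were below 0 (46.2% of all genes were) and none was called. The median was -0.06 for knockdown columns 1 and 2 and -0.82 for columns 3 and 4. HIST1H2BC, the list's member with the smallest p, rose with knockdown without TG (log2 1.10, adjusted p = 0.00105, edgeR) and was not called with TG (log2 0.16, adjusted p = 0.621). HIST1H2BJ, which is outside the list and was chosen after its values were seen, was at 7.39, 7.09, 5.89 and 7.44 CPM in siCTRL and 6.09, 5.38, 5.11 and 4.48 CPM in siMOCOS. The TG libraries held it at 28.5, 32.3, 29.2 and 30.6 CPM in siCTRL and 8.52, 11, 7.08 and 13.3 CPM in siMOCOS, with no overlap (log2 -1.19, SE 0.249, adjusted p = 0.0986 for the interaction, edgeR).

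**Figure D5:**
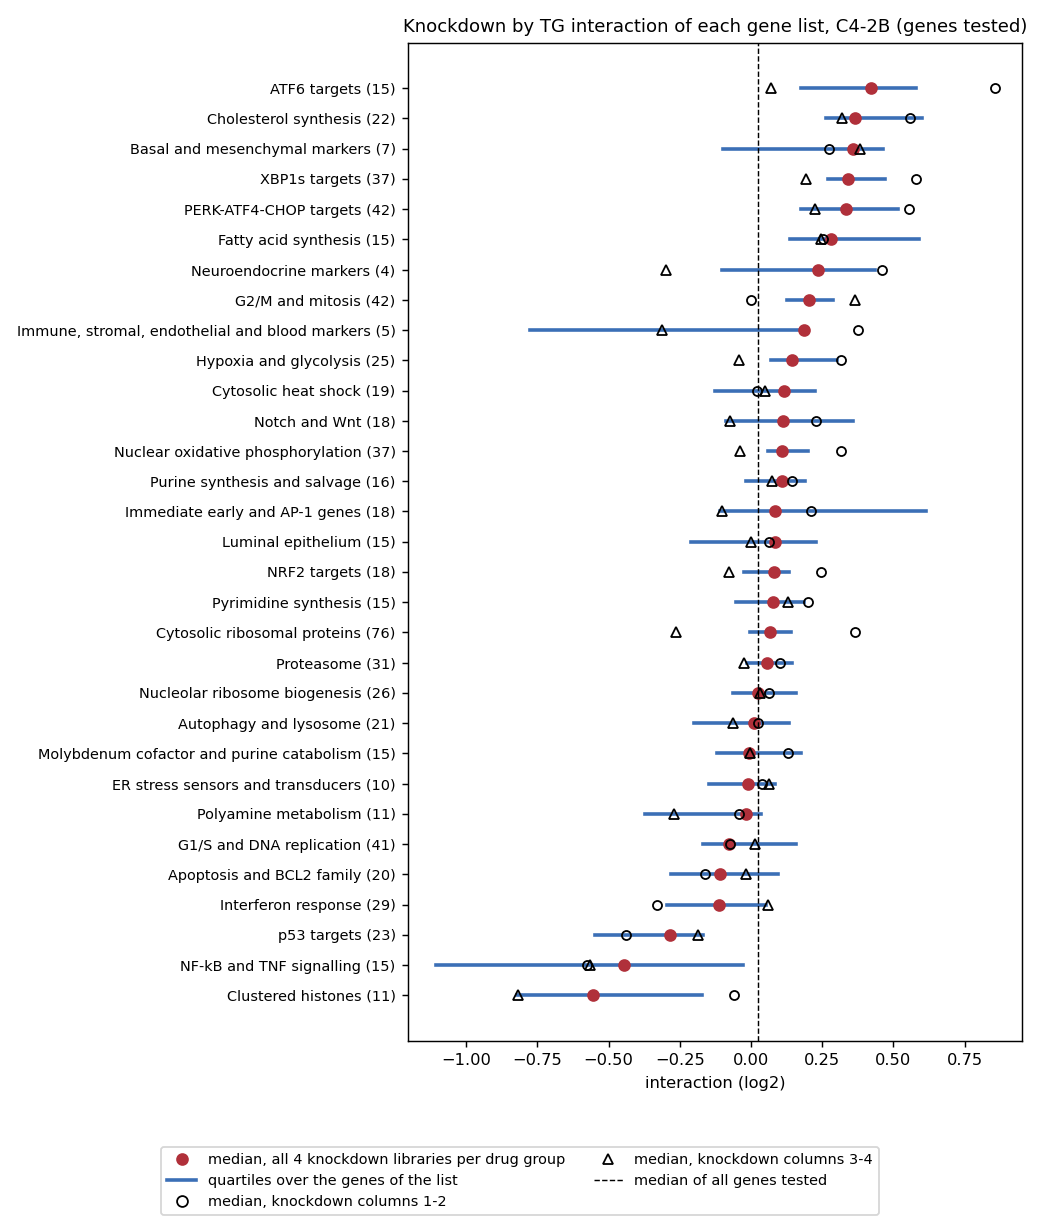
Median interaction (x axis, log2) of each of 31 gene lists in C4-2B, with the number of genes tested in parentheses. Red points are medians over the genes with all knockdown libraries, blue bars their quartiles, open symbols the medians for knockdown columns 1 and 2 (circles) and 3 and 4 (triangles), and the dashed line the median of all genes, 0.03; the ATF6 list lies highest at 0.42 and the clustered histones lowest at -0.55.

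Nearly all measured proliferation genes were called lower after knockdown in both settings (8.14% of all genes were without TG and 7.6% with TG), and no interaction among them was called. All 42 G2/M and mitosis genes were called lower after knockdown without TG and 41 with TG, with median effects of -1.81 and -1.61. Their median interaction was 0.21, with 37 of 42 above 0 (53.8% of all genes were) and none called. It was, however, 0.0014 for knockdown columns 1 and 2 and 0.36 for columns 3 and 4. Without siMOCOS replicate 3 it was 0.13, the lowest of the fits that left out 1 library, and the highest was 0.26. CCNB1, the mitotic cyclin B1, was at 102, 80.8, 112 and 108 CPM in siCTRL and 36.5, 41.7, 37.7 and 36.9 CPM in siMOCOS. With TG it was at 59.4, 56.1, 51.5 and 61.1 CPM in siCTRL and 36.2, 35.2, 36.1 and 33.9 CPM in siMOCOS. TG lowered it in siCTRL cells (log2 -0.82) and was not called in siMOCOS cells (log2 -0.11), for an interaction of log2 0.71, SE 0.162, adjusted p = 0.132 by edgeR. G1/S and DNA replication genes had a median interaction of -0.08, with 40 of 41 called lower after knockdown without TG and 39 with TG. CDC6, which loads the replicative helicase, fell with knockdown by 1.76 without TG and by 1.03 with TG on the log2 scale (interaction log2 0.73, adjusted p = 0.251).

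In the pathway of MOCOS itself, XDH, the xanthine dehydrogenase that needs the sulfurated cofactor, was at 2.09, 1.86, 2.10 and 1.60 CPM in siCTRL and 3.07, 4.17, 5.93 and 6.16 CPM in siMOCOS. Its levels with TG were 15.9, 18.5, 17.5 and 20.7 CPM in siCTRL and 28.9, 31.2, 29.5 and 28.4 CPM in siMOCOS, and knockdown libraries were higher in both settings. Its interaction was not called (log2 -0.63, SE 0.270, adjusted p = 0.605, edgeR). AOX1, aldehyde oxidase, did not pass 1.52 CPM in any library (log2 -1.31, SE 0.892, adjusted p = 0.937). Besides MOCOS and XDH, no member of the 15-gene list of molybdenum cofactor and purine catabolism had an unadjusted p under 0.05. TMPRSS2, a transmembrane serine protease of the luminal prostate epithelium, rose with knockdown without TG (log2 1.03) and with TG (log2 0.46), with an interaction of log2 -0.57, SE 0.191, adjusted p = 0.380. FOXA1, a pioneer factor of the luminal lineage, was at 406, 493, 358 and 365 CPM in siCTRL and 568, 549, 516 and 518 CPM in siMOCOS, and at 274, 251, 296 and 239 and 522, 551, 564 and 503 CPM with TG. TG lowered FOXA1 in siCTRL cells (log2 -0.61, adjusted p = 0.000382) and was not called in siMOCOS cells (log2 -0.007, adjusted p = 0.966), and the interaction was log2 0.61, SE 0.159, adjusted p = 0.207.

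The cytosolic ribosomal protein genes had a median interaction of 0.07 over 76 genes, with 0 called and 0 at an unadjusted p under 0.05. Their medians for knockdown columns 1 and 2 (0.36) and columns 3 and 4 (-0.26) had opposite signs. The column pairs also differed in their deviation with transcript length. In siMOCOS libraries 1 to 4 its rho was 0.102, 0.176, -0.107 and -0.176, and with TG -0.138, -0.237, 0.207 and 0.125. With GC content, rho was -0.416, -0.286, 0.379 and 0.334 in siMOCOS libraries 1 to 4 without TG. The part of these deviations in the split was not tested. Nuclear oxidative phosphorylation genes had a median of 0.11, and proteasome, nucleolar and autophagy genes lay between 0.009 and 0.06. The neuroendocrine markers summed to 2.62 to 4.61 CPM in siCTRL, 3.31 to 6.84 CPM in siMOCOS, 5.87 to 9.87 CPM in siCTRL with TG and 6.05 to 21.5 CPM in siMOCOS with TG. SYP carried nearly all of this sum, with INSM1 at 0 and CHGA at or near 0, and its part in the results was not tested.

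No interaction was called in the remaining lists of the plot of list medians. HK2, the glycolytic enzyme hexokinase 2, was at 93.8, 94.0, 88.1 and 84.0 CPM in siCTRL and 44.1, 59.2, 86.0 and 83.5 CPM in siMOCOS, with libraries 1 and 2 the low ones. The TG libraries held it at 50.3, 44.7, 53.2 and 50.1 CPM in siCTRL and 63.5, 62.7, 76.0 and 72.1 CPM in siMOCOS, with every knockdown library higher (log2 0.87, SE 0.235, adjusted p = 0.220 for the interaction, edgeR). DDX58, which encodes the RNA sensor RIG-I, fell with knockdown in cells given TG (log2 -0.95, adjusted p = 0.000738) and was not called without it (log2 -0.24, adjusted p = 0.392), and its interaction was log2 -0.71, adjusted p = 0.402. ARG2, the mitochondrial arginase, rose with knockdown in both settings, by log2 1.85 without TG and 1.13 with TG (interaction log2 -0.71, adjusted p = 0.440). VWF, an endothelial marker, was at 1.05, 0.975, 1.35 and 1.37 CPM in siCTRL, 2.15, 3.35, 2.53 and 3.36 CPM in siMOCOS, 6.45, 5.82, 6.49 and 4.73 CPM in siCTRL with TG and 4.31, 3.87, 4.47 and 6.99 CPM in siMOCOS with TG (log2 -1.51, adjusted p = 0.113). The endothelial markers PECAM1 and CDH5 stayed at or near 0.

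LNCaP gave the same comparison in separate libraries. INSIG1 was the 1 gene called there (log2 1.02, SE 0.141, adjusted p = 0.0149, edgeR), 0.00724% of 13806, and 918 genes (6.65%) had an unadjusted p under 0.05. Its LNCaP levels were 123, 106, 108 and 104 CPM in siCTRL and 79.7, 77.8, 77.6 and 78.1 CPM in siMOCOS. With TG they were 71.2, 76.0, 76.7 and 79.6 CPM in siCTRL and 122, 125, 95.9 and 94.3 CPM in siMOCOS. As in C4-2B, all knockdown libraries were lower than siCTRL without TG and all were higher with it. SQLE had a value of log2 1.23, SE 0.227, adjusted p = 0.0920 in LNCaP, NRCAM of log2 -0.75, adjusted p = 0.901, DDR2 of log2 -0.80, adjusted p = 0.739 and RDH11 of log2 -0.14, adjusted p = 0.923. The LNCaP medians were 0.30 for cholesterol synthesis (21 of 22 above 0), 0.29 for ATF6 targets (14 of 15), 0.22 for XBP1s targets (34 of 37) and -0.33 for p53 targets (4 of 23), where 58.4% of all genes were above 0. The interaction differed between the lines for 0 of 14628 genes by edgeR (234 genes, 1.6%, at an unadjusted p under 0.05) and for 0 by limma voom. For SQLE, C4-2B minus LNCaP was log2 0.18, SE 0.320, adjusted p = 1, and for RDH11 it was log2 -0.63, SE 0.181, adjusted p = 1 (unadjusted p = 0.00159).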

How the data were processed

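Poly(A) RNA-seq of 32 libraries was analysed, 16 from C4-2B. The deposited table holds estimated counts per gene, not whole numbers (100% of values above 0), made by the authors with Trim Galore 0.6.7, STAR 2.6.1d and Salmon 1.5.2 on hg38, per the submitters' processing notes. The counts were rounded and tested with edgeR 4.0.16 in R 4.3.3 (filterByExpr, TMM factors, quasi-likelihood fit) on the 16 C4-2B libraries in 4 groups, with 12 residual degrees of freedom and Benjamini-Hochberg adjustment over 14127 genes. Calls are at an adjusted p under 0.05. LNCaP was fitted separately, and all 32 libraries together for the difference of lines. The libraries held 12426702 to 24362179 counts, and p-values measure the spread between libraries only.

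The members and the 32 gene lists were chosen with earlier results of these data known. Genes were named by a rule: MOCOS, XDH and AOX1, called genes averaging 5 CPM or more, and in each list up to 3 called members or the 1 with the smallest p. The other genes given with values were chosen after their values were seen: NRCAM, COL24A1, LOC102723433, HIST1H2BJ, CYP51A1, MSMO1, STARD4, HMGCS1, DNAJB11, SLC1A4, SLC7A5, MTHFD2, KDELR3, FADS1, SESN1, CDKN1A, ATF4 and DDIT3. Alternatives were other scaling factors, filters and tools (DESeq2 1.42.0, limma 3.58.1 voom), each library left out, the knockdown columns apart, a block by column number, and length and GC offsets. Some items are not reported here. The edgeR model was run on simulated counts with a known interaction. Those counts had no split between column pairs and no deviation with length or GC content.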

Additional observations from a re-analysis of the deposited data

Results flagged for a closer look

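In 14 of 264 groups of 4 libraries, over the named genes, 1 library stood apart from the other 3 by Dixon's ratio at its 95% critical value. Chance alone gives about 1 such group in 20. In siCTRL TG replicate 3, INSIG1 was low at 169 CPM, MTHFD2 low at 169 CPM and GNL3, a nucleolar GTPase, low at 453 CPM, whereas ADAMTS1 was high at 77.2 CPM and FADS1 high at 509 CPM. In siCTRL replicate 1, CYP51A1 (464 CPM), EIF2AK3 (67.2 CPM) and TRAM1, a translocon protein of the ER (407 CPM), were high. COL24A1 was high in siCTRL replicate 4 (2.35 CPM), and MSMO1 was low in siCTRL TG replicate 1 (67.4 CPM). DNAJB11, an ER chaperone cofactor, was low in siCTRL replicate 2 (230.2 CPM). In siMOCOS without TG, CHAC1 was high (2.29 CPM) and RPL24, a ribosomal protein, low (624 CPM) in replicate 4, and GCLC, of glutathione synthesis, low (75 CPM) in replicate 3.

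Without siCTRL replicate 2 and siCTRL TG replicate 3 together, an alternative chosen after seeing the data, INSIG1 (log2 1.22, adjusted p = 0.0147), SQLE (1.44, 0.0306), ADAMTS1 (1.07, 0.0306), NRCAM (-2.68, 0.0147) and DDR2 (-1.72, 0.0147) were called by edgeR, and the other 5 genes were not (adjusted p = 0.0534 to 0.106).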

How the results depend on the processing

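All 10 called genes kept their sign under every alternative run, but the number of calls moved. Against 4 positive and 6 negative calls by edgeR, DESeq2 gave 39 and 46, limma voom 3 and 3, no filter on low counts 4 and 2, RLE factors 4 and 7, upper-quartile factors 3 and 7, and a minimum mean of 1 CPM 3 and 5. A fit of all 32 libraries gave 17 and 27, length and GC offsets 51 and 44, and knockdown columns 1-2 and 3-4 as separate groups 93 and 102. Columns 1-2 alone gave 61 and 150, and columns 3-4 alone 1 and 1. Added after seeing the data, separate groups with offsets gave 434 and 366, and leaving out siCTRL 2 and siCTRL TG 3 gave 3 and 2. Leaving out 1 library gave 0 to 4 positive and 1 to 8 negative calls. It kept only NRCAM without siCTRL TG 2, siMOCOS TG 2 or siMOCOS 4.

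The replicate block by column number gave 2 positive calls and 1 negative call. The numbers did not consistently pair the libraries: over 24 same-number pairs the deviations correlated between -0.371 and 0.501, with 10 above 0.1. In 8 libraries the mean correlation was highest with libraries of their own number.

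Knockdown was called for 4076 genes without and 4146 with TG in separate groups, 4395 and 4395 with columns 1-2 alone, and 5570 and 5663 in separate groups with offsets, where TG was called for 8295 genes in siMOCOS cells. In LNCaP the count was 2 with upper-quartile factors, 2 at a minimum of 1 CPM, 49 with DESeq2, 140 in separate groups and 0 to 1 with 1 library left out.

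With columns 1-2 alone the median interaction was 0.53 for cholesterol synthesis, 0.82 for ATF6 targets, 0.55 for XBP1s targets, -0.47 for p53 targets, -0.090 for clustered histones and -0.032, a change of sign, for G2/M genes. With columns 3-4 alone it was 0.026 for ATF6 and 0.15 for XBP1s targets, and ATP5G1, a subunit of ATP synthase, changed sign to -0.029. The cause was not tested. Genes under about 1 CPM, such as AOX1, had too few counts for precise folds, as did NRCAM in siCTRL cells without TG.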
